A study of Drosophila melanogaster with 10 samples.

Results

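The digestive serine proteases described here are the Jonah genes, the trypsins and 4 related proteases of the larval midgut of Drosophila melanogaster. They were chosen by symbol from the deposited gene tables: Jon followed by a digit, a name ending in Try, or Try29F, Ser6, Ser8, Ser12 or yip7. The rule found 31 genes among 13995, made up of 16 Jonah genes, 11 trypsins and 4 other serine proteases, and it used no measured value. RNA was sequenced from the whole bodies of male larvae in the third instar, kept at 25 °C, in 5 genotypes with 2 libraries each. The mutant genotype was y w, atf3[76]. A further 3 genotypes carried atf3[76] together with 1 copy of dfoxo[25J13], rel[E20] or atf3[A], and are called foxo/+, rel/+ and atf3[A]/+ here. The control was y w, and all 5 genotypes shared the y w background. The study asked how the transcription factor Atf3 bears on immune and metabolic homeostasis, going by its title, and its design set each mutant genotype against y w. The labels give no molecular lesion for any allele and do not say what the atf3[A] element on the third chromosome is. The libraries of a genotype are called biological replicates, but nothing says that they came from separate cultures. A p-value here therefore measures spread between libraries that may be technical.

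The digestive serine proteases of this fold are secreted into the gut lumen by enterocytes, the absorptive cells of the midgut, and cut dietary protein into peptides. Trypsins cut after lysine or arginine. The Jonah proteins are a family of the same fold, assigned as endopeptidases by sequence similarity and known for very high expression in the feeding larva. Both families stand in tandem arrays of close copies, and their transcripts depend on feeding and on the state of the gut. Atf3 is a basic leucine zipper factor, FOXO is a forkhead factor that insulin signalling restrains, and rel encodes Relish, an NF-kB protein that acts downstream of Imd in immunity.

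Most of the 31 genes lie in clusters, with positions here as deposited on the dm3 build. The 10 trypsins with Greek-letter names share 20686 bp of 2R, from 7224352 to 7245037. The Jonah genes lie in groups of 2 or 3: Jon25Biii, Jon25Bii and Jon25Bi at 2L:4949946-4955353, Jon65Aiii, Jon65Aii and Jon65Ai at 3L:6043873-6047526, and Jon66Ci and Jon66Cii at 3L:8384641-8386749. On 3R, Jon99Ciii, Jon99Cii and Jon99Ci occupy 25747930 to 25751907, and Jon99Fii and Jon99Fi occupy 26312735 to 26315625. The gene yip7, a Jonah-like protease named for an interaction with the Yippee protein, lies beside Jon65Aiv at 3L:6028329-6033246. Jon44E, Jon74E, Try29F, Ser6, Ser8 and Ser12 stand alone. In the deposited records alphaTry, betaTry and epsilonTry overlap a long record of CG30031, deltaTry overlaps CG13202, Ser8 overlaps CG42321 and Try29F overlaps CG18661. The sources used here do not say how reads were shared between overlapping genes or near-identical copies, so it is uncertain which copy such values describe.

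Replicate 1 of atf3[76] and replicate 1 of y w stood apart from the other 8 libraries. Relative depth, read from the smallest steps in the FPKM values of small nucleolar RNAs, was 0.634 and 0.506 in those 2 libraries and between 0.934 and 1.0 in the 7 others where it could be read. Among genes whose median elsewhere was 10 FPKM or more, 4.54% and 3.84% were listed at the deposited minimum of 1 in these 2 libraries, against 0.136% to 1.27% in the others. Atf3 itself, listed under its older symbol A3-3, had 6.09 and 13.7 FPKM in atf3[76], 13.1 and 13.5 in foxo/+, 15.1 and 9.24 in rel/+, 9.51 and 12.8 in atf3[A]/+, and 3.28 and 4.14 in y w. A value for the whole gene does not say which part of it was read, so it does not check the allele. The levels of foxo were 8.69 and 6.86 FPKM in foxo/+ and 1 and 7.64 in y w, and those of Rel were 16.7 and 13.3 FPKM in rel/+ and 14.2 and 10.3 in y w. Each table also keeps the authors' own call per gene, given near the end.

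The protease genes were among the most abundant transcripts of the larva. FPKM, the fragments of a transcript scaled to its length and to the mapped fragments of the library, corrects for length, so levels can be set beside each other between genes. By mean FPKM over the 10 libraries, Jon99Cii ranked 3, deltaTry 4, Jon65Aiv 6 and Jon99Ciii 7 among all genes, and every library held between 8 and 14 of the 31 genes in its top 50. At the other end Ser8 and Ser12, trypsin-like proteases, were listed at the minimum of 1 FPKM in all 10 libraries and were not tested. The remaining 29 passed the filter of more than 1 FPKM in at least 1 library in every comparison. Their means ran from 5.32 FPKM for Try29F, a trypsin outside the array, to 5071 FPKM for Jon99Cii.

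The widest differences in summed level were those between the libraries of atf3[76] and between the libraries of y w. The 16 Jonah genes summed to 50327 and 16236 FPKM in atf3[76], 14683 and 15090 in foxo/+, 21828 and 16909 in rel/+, 14957 and 16914 in atf3[A]/+, and 43855 and 17518 in y w. The high values were those of replicate 1 in atf3[76] and y w, the 2 libraries of low depth. The 11 trypsins summed to 12496 and 3025 FPKM in atf3[76], 5059 and 5507 in foxo/+, 5191 and 5299 in rel/+, 4026 and 4983 in atf3[A]/+, and 13586 and 5631 in y w. Together the 31 genes made up 18.4% and 6.87% of all FPKM in the atf3[76] libraries, between 6.54% and 8.74% in the 6 libraries of foxo/+, rel/+ and atf3[A]/+, and 15.9% and 8.01% in those of y w. With replicate 1 of atf3[76] and y w left out, the Jonah sums of the 8 remaining libraries lay between 14683 and 21828 FPKM and the trypsin sums between 3025 and 5631. A 2-against-2 comparison of sums cannot give an exact two-sided permutation p under 0.333, so none was run. In whole larvae, fewer midgut cells and less RNA per cell cannot be told apart.

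**Figure D1:**
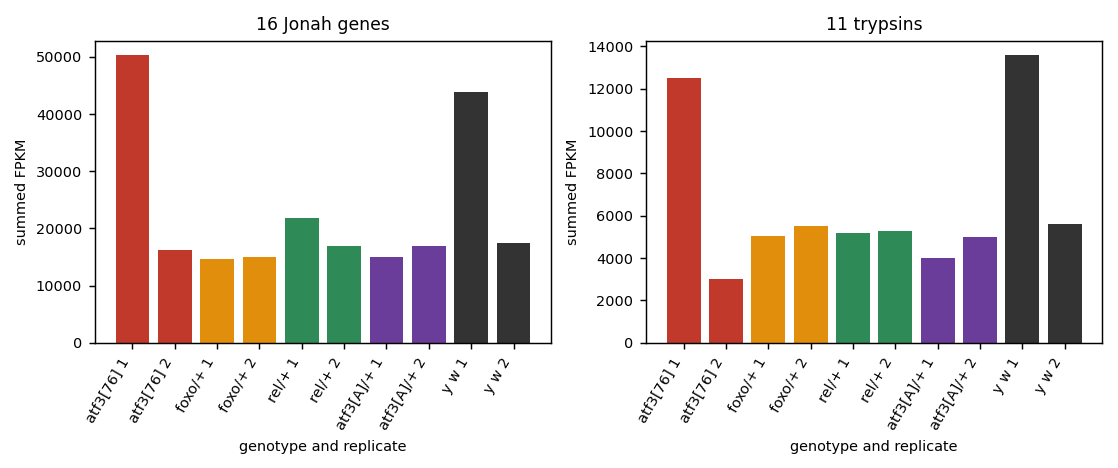
Summed FPKM of the 16 Jonah genes and of the 11 trypsins in each of the 10 libraries, with 1 bar per library and the axis starting at 0. Replicate 1 of atf3[76] and replicate 1 of y w reach 50327 and 43855 FPKM for the Jonah genes, while the other 8 libraries lie between 14683 and 21828.

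Among the protease genes of atf3[76] and y w, the difference between the libraries was larger at 100 FPKM or more. Among the 20 protease genes with a mean of at least 100 FPKM, the median log2 difference of replicate 1 minus replicate 2 was 1.47 in atf3[76] and 1.35 in y w, and 17 and 15 of the 20 differed by at least 1. Other genes of at least 100 FPKM had medians of 0.26 in atf3[76], over 386 genes, and 0.20 in y w, over 383. Other genes under 100 FPKM had medians of -0.10 in atf3[76] and 0.27 in y w. The 9 protease genes under 100 FPKM had medians of 0.53 in atf3[76] and 0.21 in y w. In foxo/+ and atf3[A]/+ the 20 abundant genes had medians of -0.09 and -0.22, and in rel/+ 0.42. The 9 under 100 FPKM had -0.20 in foxo/+, -0.15 in atf3[A]/+ and 0.35 in rel/+. The widest gap in the atf3[76] libraries was that of Jon25Bii, with 533 and 88.7 FPKM. Other luminal digestive enzymes had medians of 0.17 in atf3[76] and 0.38 in y w, and 3 of 25 and 7 of 26 of them were above 1, against 2.42% and 3.86% of all genes. Among them the lysozyme LysS had 1350 and 600.2 FPKM in atf3[76] and 1710 and 522 in y w, so the gap was not limited to the proteases. Most of the list did not share it in both genotypes. The amylase Amy-d had 114 and 159 FPKM in atf3[76] and 111 and 8.17 in y w. The lysozyme LysD had 134 and 158 FPKM in atf3[76] and 5482 and 5715 in y w. Enterocyte markers had medians of 0.36 in atf3[76] and 0.30 in y w, with none above 1. Salivary gland genes had medians of -0.26 and 1.12, with 0 and 5 of 10 above 1, and fat body and larval serum genes had -0.53 and 0.99, with 0 and 3 of 6 above 1. These lists thus moved with the proteases in y w and not in atf3[76]. The part of depth and of these lists in the protease differences was not tested.

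**Figure D2:**
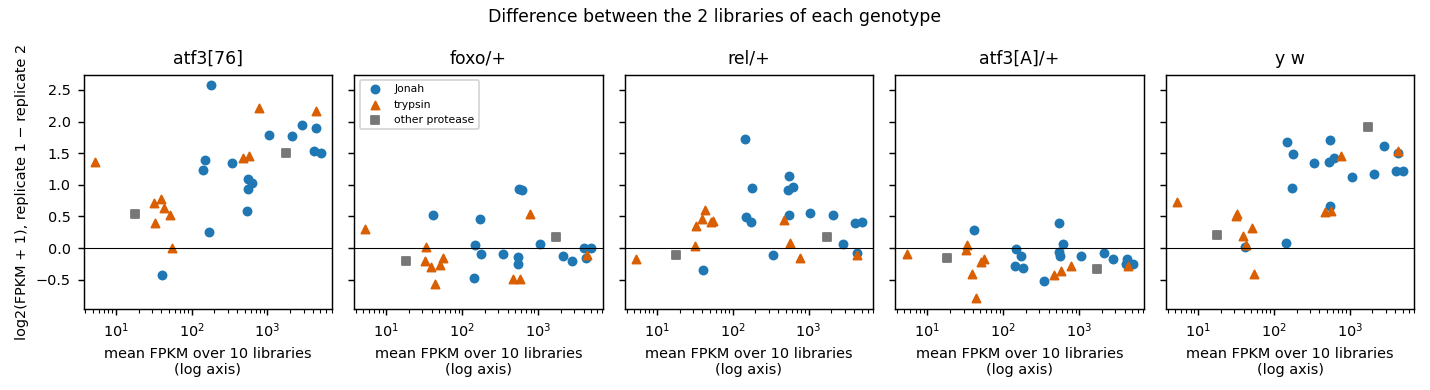
Difference in log2(FPKM + 1) between replicate 1 and replicate 2 of each genotype, against the mean FPKM over the 10 libraries on a log axis, with 1 point for each of 29 genes. In atf3[76] and y w the abundant genes lie mostly above 1, with medians of 1.47 and 1.35 for those of at least 100 FPKM, and in foxo/+ and atf3[A]/+ they lie around 0.

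Among the Jonah genes, mean levels ran from 41.2 FPKM for Jon99Ci to 5071 for Jon99Cii, and the abundant genes were highest in the low-depth libraries. Jon99Cii had 11281 and 3988 FPKM in atf3[76], 2266 and 2263 in foxo/+, 6107 and 4612 in rel/+, 3196 and 3813 in atf3[A]/+, and 9234 and 3950 in y w. Its neighbour Jon99Ciii had 9255 and 3192 FPKM in atf3[76], 1808 and 1816 in foxo/+, 4947 and 3775 in rel/+, 2507 and 2992 in atf3[A]/+, and 7502 and 3215 in y w. Both were lowest in foxo/+, where neither library overlapped any other genotype. The ratio of Jon99Cii to Jon99Ciii stayed between 1.22 and 1.28 in all 10 libraries, and reads shared between these neighbours cannot be told apart.

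Jon65Aiv had 10849 and 2926 FPKM in atf3[76], 3307 and 3690 in foxo/+, 2664 and 2807 in rel/+, 2779 and 3148 in atf3[A]/+, and 8335 and 2930.2 in y w. Jon65Aiii had 7118 and 1843 FPKM in atf3[76], 2098 and 2405 in foxo/+, 1573 and 1503 in rel/+, 1809 and 2030.5 in atf3[A]/+, and 6055 and 1989 in y w. For both genes rel/+ lay below every other genotype's libraries except, for Jon65Aiv, replicate 1 of atf3[A]/+. Jon66Ci had 4865 and 1431 FPKM in atf3[76], 1646 and 1802 in foxo/+, 1849 and 1292 in rel/+, 1509 and 1587 in atf3[A]/+, and 3625 and 1619 in y w. Jon66Cii, its neighbour, had 2450.3 and 712 FPKM in atf3[76], 699 and 671 in foxo/+, 853 and 582 in rel/+, 829 and 902 in atf3[A]/+, and 1987 and 909 in y w. For both of these genes the low-depth libraries were the highest.

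Of the 8 Jonah genes with the highest levels, Jon99Fi and Jon99Fii were those whose mean was highest in y w. Jon99Fi had 751 and 367 FPKM in atf3[76], 561 and 297 in foxo/+, 609 and 313 in rel/+, 389 and 372 in atf3[A]/+, and 1846 and 686 in y w. Jon99Fii had 486 and 255 FPKM in atf3[76], 592 and 309 in foxo/+, 493 and 223 in rel/+, 331 and 361 in atf3[A]/+, and 1932 and 589 in y w. For Jon99Fii both libraries of atf3[76], rel/+ and atf3[A]/+ lay below both y w libraries, and foxo/+ overlapped y w by 1 library. For Jon99Fi the atf3[76] libraries overlapped those of y w and the other 3 genotypes lay below.

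The other 8 Jonah genes had means between 41.2 and 549 FPKM. Jon44E had 198 and 83.8 FPKM in atf3[76], 55.9 and 78.0 in foxo/+, 234 and 70.4 in rel/+, 88.8 and 108 in atf3[A]/+, and 265 and 251 in y w, and every mutant library lay below both y w libraries. Jon99Ci, the least abundant, had 31.9 and 43.3 FPKM in atf3[76], 18.9 and 12.8 in foxo/+, 25.4 and 32.6 in rel/+, 78.8 and 64.7 in atf3[A]/+, and 52.3 and 51.5 in y w. Its order ran foxo/+, then rel/+ and atf3[76] with overlapping libraries, then y w, then atf3[A]/+, which was the reverse of what its neighbours Jon99Cii and Jon99Ciii showed for atf3[A]/+ and y w. Jon25Bi had 401 and 152 FPKM in atf3[76], 62.1 and 59.7 in foxo/+, 79.3 and 56.0 in rel/+, 178 and 181 in atf3[A]/+, and 244 and 75.6 in y w. The libraries of foxo/+ and rel/+ and replicate 2 of y w lay between 56.0 and 79.3 FPKM, and the others at 152 or above. Jon25Bii had 533 and 88.7 FPKM in atf3[76], 79.96 and 85.2 in foxo/+, and 123 and 63.2 in rel/+. It had 141 and 176 FPKM in atf3[A]/+ and 376 and 134 in y w. Jon65Ai, Jon65Aii, Jon25Biii and Jon74E ranged from 101 to 980.3 FPKM over all libraries.

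**Figure D3:**
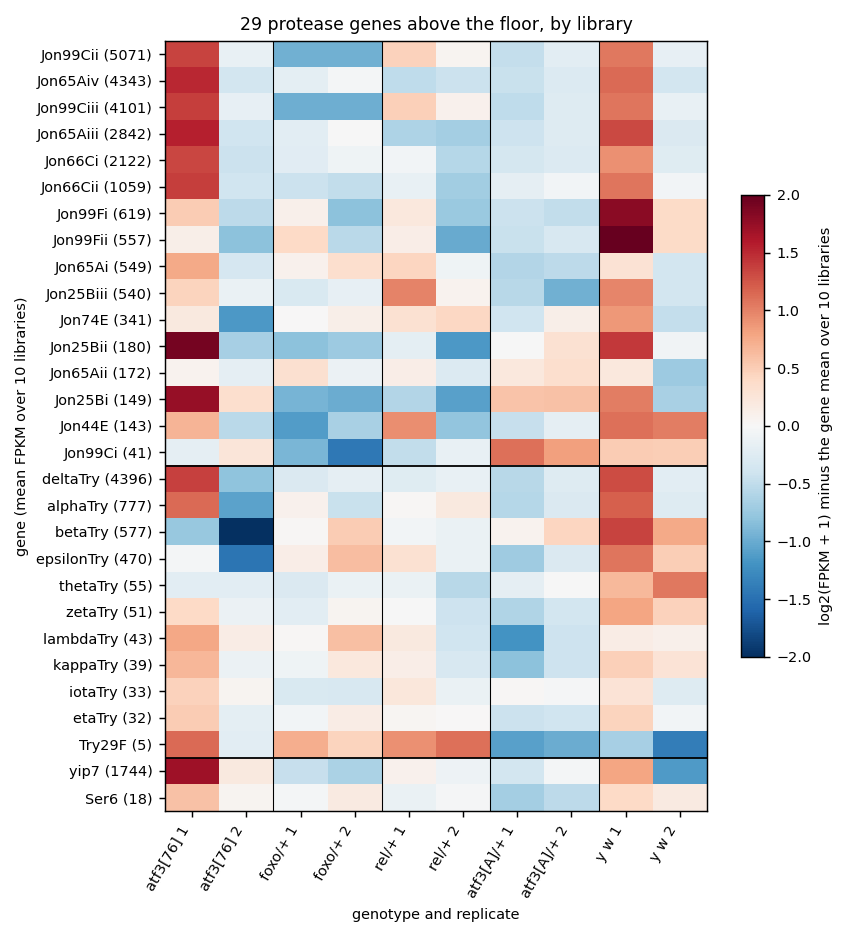
Level of each of the 29 genes above the minimum in each of the 10 libraries, as log2(FPKM + 1) minus the gene's mean over the libraries, with the mean FPKM beside the gene name and lines between Jonah genes, trypsins and other proteases. Replicate 1 of atf3[76] and of y w is high for most abundant genes, betaTry is lowest in both atf3[76] libraries, and Try29F is high in atf3[76] replicate 1, foxo/+ and rel/+.

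The trypsin array was led by deltaTry, with 9930 and 2203 FPKM in atf3[76], 3135 and 3378 in foxo/+, 3224 and 3473 in rel/+, 2615 and 3199.6 in atf3[A]/+, and 9508 and 3299 in y w. alphaTry had 1519 and 327 FPKM in atf3[76], 733 and 505 in foxo/+, 705 and 789 in rel/+, 464 and 565 in atf3[A]/+, and 1587 and 579 in y w. The atf3[76] libraries spanned those of all other genotypes for deltaTry, and for alphaTry all but replicate 1 of y w. The 3 deposited records of CG30031 inside the array held between 0.931 and 1.03 times the deltaTry level in every library.

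betaTry stood apart from its neighbours, with 291 and 106 FPKM in atf3[76], 499 and 701 in foxo/+, 470.2 and 445 in rel/+, 515 and 665 in atf3[A]/+, and 1251 and 829.6 in y w. Both atf3[76] libraries lay below all 8 others and both y w libraries lay above all 8 others. epsilonTry had 414 and 154 FPKM in atf3[76], 466 and 651 in foxo/+, 528 and 389 in rel/+, 259.9 and 349 in atf3[A]/+, and 890.0 and 597 in y w. thetaTry had 45.1 and 44.9 FPKM in atf3[76], 42.5 and 47.5 in foxo/+, 47.6 and 35.1 in rel/+, 45.8 and 51.6 in atf3[A]/+, and 82.5 and 109.8 in y w. Every mutant library of thetaTry lay below both y w libraries, and the mutant libraries lay between 35.1 and 51.6 FPKM. The mutant libraries of zetaTry also lay below both y w libraries, with 65.4 and 45.4 FPKM in atf3[76], 42.5 and 51.4 in foxo/+, 49.2 and 36.6 in rel/+, 32.3 and 38.0 in atf3[A]/+, and 85.5 and 68.5 in y w.

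The trypsins of lower mean level than zetaTry were lambdaTry, kappaTry, iotaTry, etaTry and Try29F. lambdaTry had 70.5 and 45.2 FPKM in atf3[76], 41.5 and 62.0 in foxo/+, 46.7 and 30.4 in rel/+, 17.1 and 30.3 in atf3[A]/+, and 45.3 and 43.9 in y w, and both atf3[A]/+ libraries lay below all others. kappaTry, iotaTry and etaTry ranged from 20.8 to 60.1 FPKM over all libraries. Try29F had 10.5 and 3.49 FPKM in atf3[76], 7.68 and 6.07 in foxo/+, 8.88 and 10.2 in rel/+, 1.46 and 1.63 in atf3[A]/+, and 2.30 and 1 in y w. It was higher in atf3[76], foxo/+ and rel/+ than in any library of atf3[A]/+ or y w, although a value this close to the minimum rests on few fragments. Of the other proteases, yip7 had 4852 and 1713 FPKM in atf3[76], 1081 and 959.7 in foxo/+, 1579 and 1395 in rel/+, 1157 and 1449 in atf3[A]/+, and 2574 and 681 in y w. Ser6 had 26.9 and 18.2 FPKM in atf3[76], 17.0 and 19.9 in foxo/+, 15.8 and 17.1 in rel/+, 10.6 and 11.8 in atf3[A]/+, and 23.3 and 19.9 in y w, and atf3[A]/+ lay below all others.

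**Figure D4:**
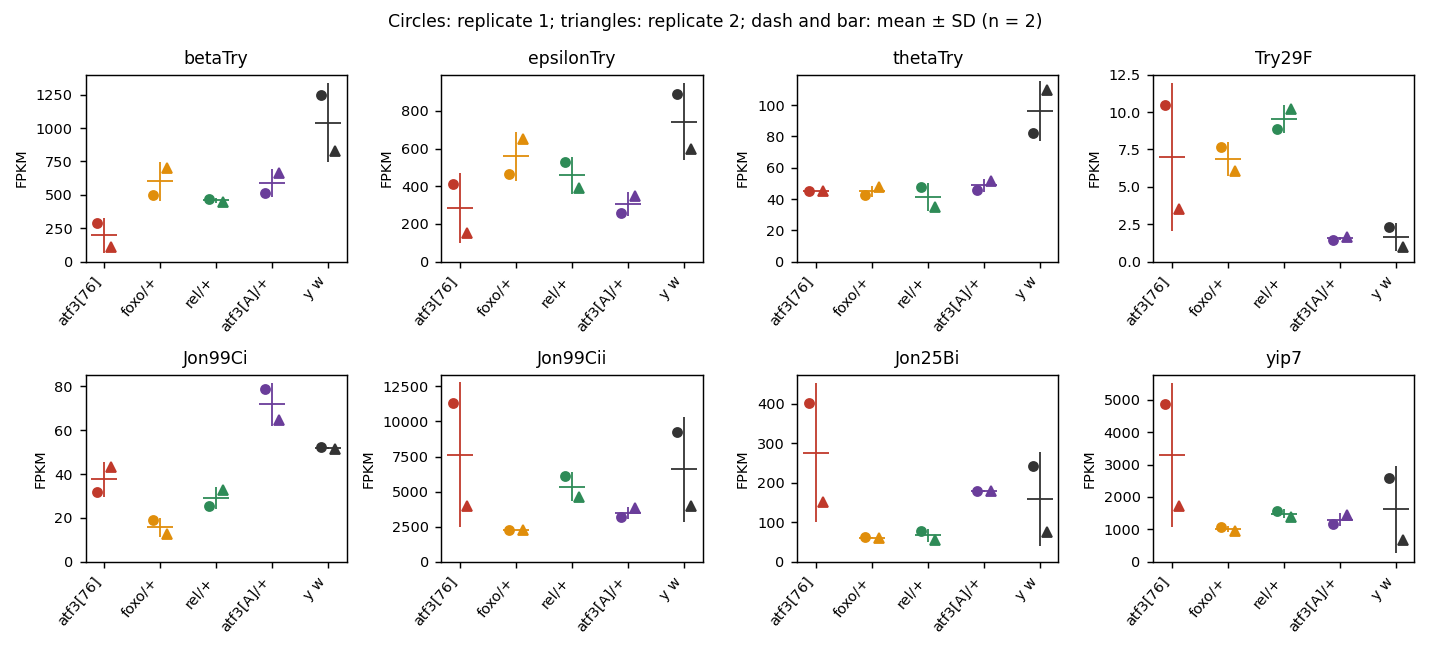
FPKM of 8 of the genes by genotype, with a circle for replicate 1, a triangle for replicate 2, and the mean ± SD of 2 libraries. thetaTry lies between 35.1 and 51.6 FPKM in the 8 mutant libraries and at 82.5 and 109.8 in y w, and betaTry is lowest in atf3[76].

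In atf3[76] larvae against y w, the trypsins betaTry, epsilonTry and thetaTry had the lowest fold changes of their family and Try29F the highest, and none passed the test. betaTry averaged 199 ± 131 FPKM in atf3[76] and 1040.1 ± 298 in y w (SD, n = 2 each), a log2 fold change of -2.53 ± 0.56 (SE). epsilonTry had a log2 fold change of -1.52 ± 0.55 and Jon99Fii of -1.60 ± 0.68. thetaTry averaged 45.0 ± 0.106 FPKM in atf3[76] and 96.1 ± 19.3 in y w (SD, n = 2 each), and its log2 fold change was -1.06 ± 0.28. That of Try29F was 1.48 ± 0.55. With limma and Benjamini-Hochberg adjustment over all genes, the adjusted p was 0.822 for betaTry and 0.987 for thetaTry, and none of the 29 genes was called at an adjusted p under 0.05, where 4 of 10983 genes, 0.0364%, were. At an unadjusted p under 0.05 there were 4 of the 29, against 3.56% of all genes. betaTry, epsilonTry and thetaTry were lower, against 0.674% of genes, and Try29F was higher, against 2.89%. Both atf3[76] libraries lay below both y w libraries for 7 of the 29, against 5.73% of genes, and above for Try29F alone, against 16.8%.

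The family medians in atf3[76] depended on single libraries. The median log2 fold change was 0.02 for the 16 Jonah genes, with a range of -0.76 to 0.83 when each library was left out in turn, -0.26 for the 11 trypsins and 0.11 for all genes tested. Of the Jonah genes 8 were below 0, and of the trypsins 8, where 29.9% of all genes were below 0. With replicate 1 of both genotypes left out, the medians were -0.14 for Jonah genes, -0.58 for trypsins and 0.29 for all genes, and betaTry had a log2 fold change of -2.96 ± 0.32 (SE) and an adjusted p of 0.0701. In that fit of the 5 genotypes the lone library of atf3[76] and of y w was taken to vary like those of the other genotypes. The same fit gave Jon25Bi 0.99 and no called protease gene. The Jonah and trypsin sums of atf3[76] differed from those of y w by less than the spread between the libraries of either genotype.

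**Figure D5:**
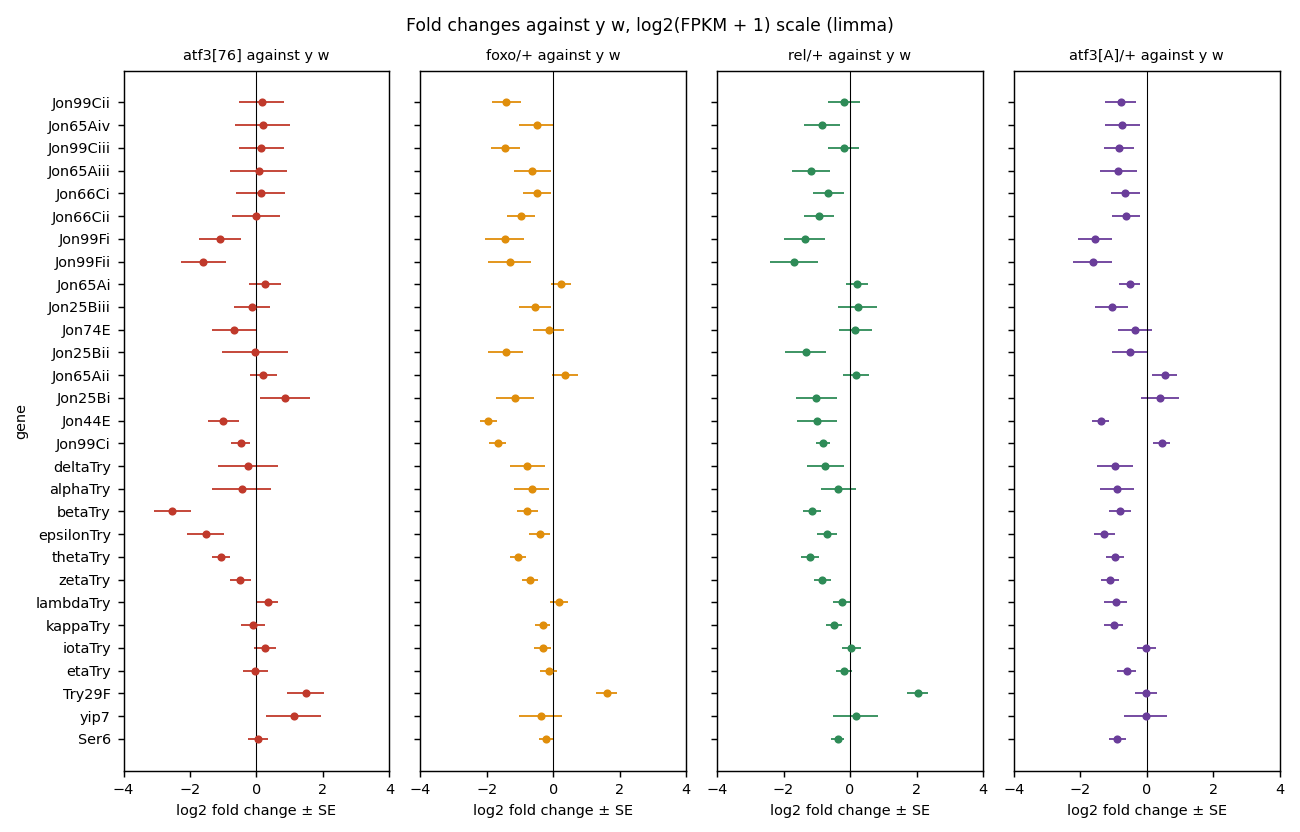
Log2 fold change ± SE of each of 29 genes in each mutant genotype against y w, on the log2(FPKM + 1) scale, from limma. betaTry is the lowest point in atf3[76] at -2.53, Try29F is the highest in rel/+ at 2.03, and the 11 trypsins all lie below 0 in atf3[A]/+.

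In foxo/+ larvae against y w, most Jonah genes had lower values, with the largest fold changes in Jon44E, Jon99Ci and Jon99Fi. Jon44E averaged 67.0 ± 15.7 FPKM in foxo/+ and 258 ± 10.1 in y w (SD, n = 2 each), a log2 fold change of -1.95 ± 0.25 (SE) with an adjusted p of 0.11. Jon99Ci averaged 15.9 ± 4.31 FPKM in foxo/+ and 51.9 ± 0.559 in y w (SD, n = 2 each), a log2 fold change of -1.67 ± 0.26 with an adjusted p of 0.131. Jon99Fi had a log2 fold change of -1.46 ± 0.58 with an adjusted p of 0.285. Jon99Cii and Jon99Ciii had log2 fold changes of -1.41 ± 0.44 and -1.44 ± 0.44, with adjusted p of 0.237 and 0.235. Try29F ran the other way, with 6.87 ± 1.14 FPKM in foxo/+ and 1.65 ± 0.917 in y w (SD, n = 2 each), a log2 fold change of 1.61 ± 0.32 and an adjusted p of 0.178. None of the 29 genes was called with limma, where 23 of 11274 genes, 0.204%, were. At an unadjusted p under 0.05 there were 8, against 18.1% of all genes, of which 7 were lower, against 2.35%, and 1 was higher, against 15.8%.

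Both foxo/+ libraries lay below both y w libraries for 14 of the 29, 8 of them Jonah genes and 5 of them trypsins, against 9.3% of all genes. The only gene above was Try29F, against 48.2%. The median log2 fold change was -1.06 for Jonah genes and -0.40 for trypsins, where that of all genes was 0.32. Of the Jonah genes 14 of 16 were below 0, and of the trypsins 9 of 11, where 21.1% of all genes were. Without replicate 1 of atf3[76] and y w, the Jonah median was -0.36, the trypsin median -0.05 and the median of all genes 0.42, and 9 Jonah genes and 7 trypsins were below 0, where 19.2% of all genes were. Jon44E was called when only genes of at least 5 FPKM in 2 libraries were tested, with an adjusted p of 0.0459. Jon25Bii depended on the y w library used, with 376 FPKM in replicate 1, of low depth, and 134 in replicate 2. Its log2 fold change was -1.43 with all libraries and -0.69 without replicate 1 of atf3[76] and y w.

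In rel/+ larvae against y w, the differences were again mostly lower values, with Try29F the largest in the opposite direction. Try29F averaged 9.53 ± 0.923 FPKM in rel/+ and 1.65 ± 0.917 in y w (SD, n = 2 each), a log2 fold change of 2.03 ± 0.31 (SE) with an adjusted p of 0.129. thetaTry had a log2 fold change of -1.20 ± 0.27 and betaTry of -1.15 ± 0.27, with adjusted p of 0.152 and 0.155. Jon99Fii and Jon99Fi had log2 fold changes of -1.68 ± 0.72 and -1.36 ± 0.61, with adjusted p of 0.22 and 0.231. Of the Jon99C cluster, Jon99Cii averaged 5360 ± 1057 FPKM in rel/+ and 6592 ± 3736 in y w (SD, n = 2 each), a difference within the spread of y w, and Jon99Ci had a log2 fold change of -0.83 ± 0.21 with an adjusted p of 0.155. None of the 29 genes was called with limma, where 61 of 11354 genes, 0.537%, were. At an unadjusted p under 0.05 there were 5, against 25.4% of all genes, of which 4 were lower, against 3.02%, and Try29F was higher, against 22.4%.

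Both rel/+ libraries lay below both y w libraries for 14 of the 29, against 8.72% of genes, and above for Try29F alone, against 56.6%. The median log2 fold change was -0.84 for Jonah genes, -0.47 for trypsins and 0.40 for all genes. Below 0 were 12 Jonah genes and 9 trypsins, where 18.0% of all genes were. Without replicate 1 of atf3[76] and y w the medians were -0.14 for Jonah genes, -0.21 for trypsins and 0.50 for all genes. Try29F then had a log2 fold change of 2.39 and yip7 one of 1.12. For Try29F the lone y w library of that fit was listed at the minimum of 1 FPKM. Leaving out replicate 2 of y w instead, with the low-depth library as the only control, called Jon65Aiii alone.

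In atf3[A]/+ larvae against y w, trypsins and Jonah genes alike lay mostly below y w. Jon44E averaged 98.6 ± 13.9 FPKM in atf3[A]/+ and 258 ± 10.1 in y w (SD, n = 2 each), a log2 fold change of -1.39 ± 0.26 (SE) with an adjusted p of 0.225. Jon99Fii and Jon99Fi had the largest fold changes, -1.62 ± 0.58 and -1.56 ± 0.50, with adjusted p of 0.631 and 0.619. Among the trypsins epsilonTry had a log2 fold change of -1.27 ± 0.33, zetaTry of -1.11 ± 0.27 and kappaTry of -1.00 ± 0.28, with adjusted p of 0.49, 0.442 and 0.577. Ser6 averaged 11.2 ± 0.893 FPKM in atf3[A]/+ and 21.6 ± 2.35 in y w (SD, n = 2 each), a log2 fold change of -0.89 ± 0.26. None of the 29 genes was called with limma, where 41 of 11068 genes, 0.37%, were. At an unadjusted p under 0.05 there were 9, against 7.7% of all genes, and all 9 were lower, against 3.78%, where 3.92% were higher.

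Both atf3[A]/+ libraries lay below both y w libraries for 19 of the 29, made up of 9 Jonah genes, 9 trypsins and Ser6, against 17.6% of genes. Jon99Ci alone lay above, against 18.2%. The median log2 fold change was -0.69 for Jonah genes, -0.94 for trypsins and 0.01 for all genes, and 13 Jonah genes and 11 trypsins were below 0, where 49.4% of all genes were. Without replicate 1 of atf3[76] and y w the medians were -0.07 for Jonah genes, -0.50 for trypsins and 0.08 for all genes, with 10 Jonah genes and 9 trypsins below 0, where 40.5% of all genes were. At an unadjusted p under 0.05 there were then 8, against 9.97% of all genes. Jon25Bi, Jon65Aii and yip7 were higher, and Ser6, epsilonTry, kappaTry, thetaTry and zetaTry lower. The 4 comparisons share the y w libraries, so the genes lower in several of them, such as thetaTry and Jon44E, are not independent observations.

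The 3 genotypes with a second allele were also set against atf3[76] itself, in a model of all 10 libraries. betaTry was the trypsin with the largest difference in each: 599.9 ± 143 FPKM for foxo/+, 458 ± 17.9 for rel/+ and 590 ± 106 for atf3[A]/+, against 199 ± 131 in atf3[76] (SD, n = 2 each). Its log2 fold changes were 1.74 ± 0.47 (SE) for foxo/+, 1.37 ± 0.47 for rel/+ and 1.73 ± 0.47 for atf3[A]/+, with adjusted p of 0.656, 0.485 and 0.438. Jon25Bi had lower values in foxo/+ and rel/+, with log2 fold changes of -2.00 ± 0.61 and -1.87 ± 0.61 and the same adjusted p as betaTry in each. In foxo/+ Jon99Ciii had a log2 fold change of -1.58 ± 0.55, and in rel/+ Jon25Bii had one of -1.29 ± 0.85. In atf3[A]/+ Try29F had a log2 fold change of -1.50 ± 0.44 and lambdaTry of -1.27 ± 0.37, both with an adjusted p of 0.478. The 3 contrasts share the atf3[76] libraries, so the values for betaTry are not independent of each other.

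None of the 29 genes was called against atf3[76] with limma, where 6, 10 and 9 of 11558 genes were called in foxo/+, rel/+ and atf3[A]/+, or 0.0519%, 0.0865% and 0.0779%. At an unadjusted p under 0.05 there were 7 of the 29 in foxo/+, against 5.38% of all genes, 2 in rel/+, against 7.41%, and 7 in atf3[A]/+, against 8.01%. Of those 5, 1 and 5 were lower, against 0.969%, 1.08% and 6.54%, and 2, 1 and 2 were higher, against 4.41%, 6.32% and 1.47%. Both libraries lay below both atf3[76] libraries for 10 of the 29 in foxo/+, against 6.5% of genes, for 5 in rel/+, against 5.55%, and for 12 in atf3[A]/+, against 23.9%. They lay above for betaTry and epsilonTry in foxo/+, against 32.0%, for betaTry and Jon74E in rel/+, against 44.5%, and for betaTry, thetaTry, Jon65Aii and Jon99Ci in atf3[A]/+, against 8.88%. In each of the 3 contrasts 23 of the 29 were below 0, where 27.8%, 21.5% and 61.2% of all genes were. The median log2 fold changes were -0.69 for Jonah genes and -0.15 for trypsins in foxo/+, -0.33 and -0.14 in rel/+, and -0.54 and -0.57 in atf3[A]/+, where those of all genes were 0.16, 0.24 and -0.10. These medians rest on replicate 1 of atf3[76]. Without it and replicate 1 of y w, the Jonah medians were 0.05 for foxo/+, 0.18 for rel/+ and 0.17 for atf3[A]/+, and the trypsin medians 0.25, 0.22 and -0.06. betaTry then had log2 fold changes of 2.47 ± 0.28 in foxo/+ and 2.45 ± 0.28 in atf3[A]/+, with adjusted p of 0.146 and 0.14, and 11, 7 and 5 of the 29 had an unadjusted p under 0.05, against 3.07%, 3.58% and 7.09% of genes. Leaving out replicate 2 of atf3[76] instead called Try29F in atf3[A]/+ alone, with a log2 fold change of -2.18 and an adjusted p of 0.0444.

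Across the 5 genotypes at once, Jon99Ci was the gene of the 29 with the smallest p. The moderated F test of the limma model gave it an adjusted p of 0.0865, followed by thetaTry at 0.221, Try29F at 0.253 and betaTry at 0.292. None was called, where 47 of 11558 genes, 0.407%, were, and 7 had an unadjusted p under 0.05, against 14.7% of genes. Those 7 were Jon99Ci, thetaTry, Try29F, betaTry, Ser6, zetaTry and Jon25Bi. Of these, thetaTry, Try29F, Ser6, zetaTry and Jon99Ci have means under 100 FPKM. The median gap between the libraries of atf3[76] and of y w was smaller there than among the abundant genes. Try29F had the widest gap of the genes under 100 FPKM, with log2 differences of 1.36 in atf3[76] and 0.72 in y w. Jon99Ci was called once libraries were centred on their median or quantile normalized. With replicate 1 of atf3[76] and y w left out, the only y w value of Try29F was the minimum of 1 FPKM, so its F test there was not read.

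Ratios between neighbouring genes within a library are unaffected by the library total, and several of them separated genotypes. These pairs were chosen after the values were seen and have no test. The ratio of betaTry to deltaTry was 0.0293 and 0.0481 in atf3[76], between 0.128 and 0.208 in the 6 libraries with a second allele, and 0.132 and 0.251 in y w. The ratio of epsilonTry to deltaTry was 0.0417 and 0.0701 in atf3[76], between 0.0994 and 0.193 with a second allele, and 0.0936 and 0.181 in y w. That of alphaTry to deltaTry stayed between 0.148 and 0.234 in all 10 libraries. Relative to deltaTry, betaTry and epsilonTry were lower in both atf3[76] libraries than in any other, while for alphaTry the atf3[76] libraries overlapped those of foxo/+.

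The Jonah clusters also differed from each other. The ratio of Jon99Cii to Jon65Aiv was 0.685 and 0.613 in foxo/+, 2.29 and 1.64 in rel/+, 1.15 and 1.21 in atf3[A]/+, 1.04 and 1.36 in atf3[76], and 1.11 and 1.35 in y w. The foxo/+ libraries lay below all others and the rel/+ libraries above all others. The ratio of Jon25Bi to Jon25Biii was 0.156 and 0.136 in foxo/+, 0.0808 and 0.108 in rel/+, 0.532 and 0.711 in atf3[A]/+, 0.595 and 0.338 in atf3[76], and 0.251 and 0.199 in y w. These genes lie within 5408 bp of each other, and the ratio ran over a span of 8.8 times. The ratio of yip7 to Jon65Aiv was 0.447 and 0.585 in atf3[76], 0.593 and 0.497 in rel/+, 0.416 and 0.46 in atf3[A]/+, 0.327 and 0.26 in foxo/+, and 0.309 and 0.232 in y w. Over narrower spans, Jon65Aiii to Jon65Aiv lay between 0.536 and 0.726 and Jon66Cii to Jon66Ci between 0.373 and 0.569. The former was 0.59 and 0.536 in rel/+, below all others, and 0.726 and 0.679 in y w, above all others. The latter was 0.425 and 0.373 in foxo/+, below all others.

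Other genes of the gut were read beside the proteases from lists taken from general knowledge. Of 29 other luminal digestive enzymes found in the tables, the lysozymes LysB, LysD and LysE, which digest bacterial cell walls, were called lower in atf3[76] and in atf3[A]/+ against y w, and higher in foxo/+ and rel/+ against atf3[76], in rel/+ together with LysP. LysB had 142.6 and 125 FPKM in atf3[76], 3706 and 5642 in foxo/+, 4894 and 5495 in rel/+, 212 and 211 in atf3[A]/+, and 4954 and 4483 in y w. In atf3[76] and y w its libraries lay closer together than the median of the abundant proteases, and in foxo/+ farther apart. No gene was called in the other 7 lists. The 5 enterocyte markers found summed to 242.4 and 284.5 FPKM in atf3[76], 226 and 286.5 in foxo/+, 213.5 and 200.4 in rel/+, 161 and 193.3 in atf3[A]/+, and 152.9 and 194.5 in y w. The low sum in replicate 1 of y w came from mex1, with 51.2 and 116 FPKM in y w, while the other 4 markers were higher in replicate 1 than in replicate 2. GATAe, the midgut GATA factor, had 13.8 and 8.29 FPKM in atf3[76] and 8.71 and 6.91 in y w. None of the 5 enterocyte markers was at the minimum in all libraries.

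Outside the gut, transcripts of the fat body, salivary gland and larval muscle lists were read in every library. Fat body and larval serum genes, all 6 of the list, summed to between 5813 and 9410 FPKM in the 8 mutant libraries and to 12440 and 6939 in y w. All 10 salivary gland genes were found, and their sum ranged from 1158 FPKM in y w to 8031 in rel/+. Larval muscle genes summed to between 2597 and 4188 FPKM. Of the 11 in that list 3, Mhc, wupA and up, were at the minimum of 1 in every library. What was set to 1 is not stated, so a value of 1 was not read as absence of the transcript. The copper cell and enteroendocrine list summed to between 20.2 and 32.3 FPKM, the peritrophic matrix list to between 784 and 1438, and the serine proteases with roles outside digestion to between 78.5 and 126. The salivary gland genes, which change with age in the third instar, differed between libraries of 1 genotype, with sums of 1989 and 2828 FPKM in atf3[76], 4619 and 1772 in foxo/+, 3259 and 8031 in rel/+, 6824 and 2619 in atf3[A]/+, and 3070 and 1158 in y w. The part of these differences in the protease values was not tested.

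In the authors' deposited table the protease genes were mostly called down or unchanged. For atf3[76] the authors' deposited table lists 5 of the 31 as down, Try29F as up, 20 as not changed, and the others as not passing quality control. For foxo/+ the authors' deposited table lists 11 as down, of which 8 are Jonah genes, and Try29F as up. The authors' deposited table lists a further 11 as not changed there and 8 as not passing quality control (QCNP). For rel/+ the authors' deposited table again lists 11 as down and Try29F as up, with 15 not changed and 4 QCNP. For atf3[A]/+ the authors' deposited table lists 13 as down, of which 7 are trypsins and 5 Jonah genes, and none as up. The authors' deposited table lists 10 as not changed there and 8 as QCNP. Over all records the authors' deposited tables list 1.24%, 3.17%, 3.55% and 6.41% as down in atf3[76], foxo/+, rel/+ and atf3[A]/+, and 4.73%, 21.9%, 28.6% and 7.38% as up. As not changed the authors' deposited table for atf3[76] lists 87.4% of all records. In the authors' deposited tables for foxo/+, rel/+ and atf3[A]/+, 67.8%, 61.7% and 78.5% of records are not changed. As QCNP the authors' deposited tables list 6.71%, 5.77% and 7.29% of records in the same order. The fold change of betaTry in the authors' deposited table was -5.24 in atf3[76], and that of Jon44E was -3.86 in foxo/+.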

How the data were processed

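The submitters' processing notes name TopHat 1.3.2, Cufflinks 1.1.0 and the build dm3. The annotation, any use of strand and any filter are not given in the sources read. FPKM values were deposited by the authors in 4 tables of 14148 records. Each table pairs a mutant genotype with y w, whose columns are identical in all 4. The lowest deposited FPKM was 1 in every library. The authors also deposited a score named fold change and, as other information, a regulation call per record. Both are printed only as theirs, and the rule behind the calls is not given. All columns of sample values were used.

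Records sharing 1 of 94 symbols were collapsed to the record with the highest mean, leaving 13995 genes, of which 2437 were at 1 throughout. All 31 identifiers and symbols matched the gene name table used for names. The test was limma (version 3.58.1, in R version 4.3.3). It was applied to log2(FPKM + 1) of every gene with more than 1 FPKM in any library of the fit, with Benjamini-Hochberg adjustment over all of them and a threshold of 0.05. Each mutant genotype was set against y w in a fit of those libraries, and against atf3[76] in a model of all 10. Fold changes on this scale understate the change of low genes. The fit was tested on simulated data with independent noise in each library. Those data held no shift shared by the genes of a library, so they cannot show how the fit treats such libraries. Depth is not given, so no counting interval was computed. Relative depth was read from small nucleolar RNA records spanning 140 bp, where the lowest value repeated within 0.005 was taken as 1 fragment. It was kept where values at other lengths were whole multiples within 0.03. In 1 library it could not be read.

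Named with values in every library were the 8 Jonah genes and 6 trypsins with the highest means, and in each comparison the 3 genes with the largest fold change among those with at least 5 FPKM in the higher genotype. Further genes with values, such as yip7 and Ser6, and the gene ratios were chosen after their values were seen. The members and all lists were chosen with earlier results of these data known. The alternatives were another pseudocount (0.1), no filter, a filter of 5 FPKM in 2 libraries, quantile normalization, centring, a trended prior, another set of libraries in the fit, a replicate block, and leaving libraries out.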

Additional observations from a re-analysis of the deposited data

How the results depend on the processing

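The 3 largest fold changes named in each comparison kept their sign when each library was left out in turn. Several family medians and ratios of summed FPKM changed sign. How many genes passed the test depended on the settings, and so did the 0 proteases called. The cause of these shifts was not tested unless named. The numbers of genes called were 4 in atf3[76], 23 in foxo/+, 61 in rel/+ and, for atf3[A]/+, 41 against y w, 6, 10 and 9 in foxo/+, rel/+ and atf3[A]/+ against atf3[76], and 47 among the 5 genotypes. With a pseudocount of 0.1 they became 0 in atf3[76] (369 at an unadjusted p under 0.05) and 40 in foxo/+ against y w, and 11 in foxo/+ against atf3[76]. With only genes of at least 5 FPKM in 2 libraries, fewer genes were tested, and 13 in atf3[76], 85 in foxo/+, 137 in rel/+ and, for atf3[A]/+, 97 were called against y w, among them 1 protease, Jon44E in foxo/+. With no filter 120 in rel/+ and 16 in atf3[A]/+ were called against y w, and 14 in foxo/+ and 21 in rel/+ against atf3[76]. Quantile normalization called 0 in atf3[76] against y w (409 at an unadjusted p under 0.05), 16 in atf3[A]/+ against atf3[76], and 1 protease among the 5 genotypes, Jon99Ci, and it moved the trypsin median in atf3[A]/+ against y w to -0.49. Centring libraries on their median called 2 in atf3[76] against y w and again Jon99Ci, 1 protease, among the 5 genotypes, and moved the trypsin medians against y w to -0.75 in foxo/+ and -0.88 in rel/+. A trended prior called 0 in atf3[76] (387 at an unadjusted p under 0.05) and 13 in foxo/+ against y w. A model of all 5 genotypes called 35 in atf3[76], 45 in foxo/+ and 26 in atf3[A]/+ against y w, and fits of the 2 genotypes alone called 0 in foxo/+ (581 at an unadjusted p under 0.05), 16 in rel/+ and, for atf3[A]/+, 4 against atf3[76].

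Without replicate 1 of atf3[76] and y w together, 42 in atf3[76] and 36 in foxo/+ were called against y w, 23 (foxo/+), 20 (rel/+) and 22 (atf3[A]/+) against atf3[76], and 1 protease, Try29F, in rel/+ against y w and 1, again Try29F, among the 5 genotypes. For Try29F the lone y w library of these fits was listed at the minimum of 1 FPKM. The Jonah medians then were -0.36 in foxo/+ and -0.14 in rel/+ against y w, and 0.050 in foxo/+ and 0.17 in atf3[A]/+ against atf3[76]. The trypsin medians were -0.047 in foxo/+ and -0.50 in atf3[A]/+ against y w, and -0.061 in atf3[A]/+ against atf3[76].

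The labels number the replicates 1 and 2 without saying what a number shares. The correlation across genes of the replicate differences was over 0.1 in 5 of the 10 pairs of genotypes (0.568 for atf3[76] and y w, 0.595 for foxo/+ and atf3[A]/+) and not in the other 5 (-0.0506 for rel/+ and y w, -0.506 for rel/+ and atf3[A]/+), so the numbers were not taken as pairs. With the replicate number as a block, 34 in atf3[76], 42 in foxo/+, 170 in rel/+ and, for atf3[A]/+, 0 (1445 at an unadjusted p under 0.05) were called against y w, and 29 among the 5 genotypes. The block called 1 protease in atf3[76] against y w, betaTry, with an adjusted p of 0.0487, and 1 in rel/+, Try29F, with 0.0426. Crossed pairs, chosen after seeing the data because the correlations with atf3[76] were -0.126 and -0.265, called 0 genes in foxo/+ (1066 at an unadjusted p under 0.05) and 13 in atf3[A]/+ against atf3[76].

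Leaving out each replicate in turn gave 0 genes called in atf3[76] (293 to 414 at an unadjusted p under 0.05), 0 to 184 in foxo/+, 0 to 236 in rel/+ and, for atf3[A]/+, 0 (347 to 1068) against y w, 10 to 151 in foxo/+, 11 to 169 in rel/+ and, for atf3[A]/+, 15 to 144 against atf3[76], and 28 to 198 among the 5 genotypes. Proteases called were 0 to 1 in foxo/+ and in rel/+ against y w, 0 to 1 in atf3[A]/+ against atf3[76], and 0 to 2 among the 5 genotypes. Jonah medians ran from -0.76 to 0.83 in atf3[76], -1.61 to -0.36 in foxo/+, -1.13 to -0.14 in rel/+ and, for atf3[A]/+, -1.33 to -0.068 against y w, and from -1.53 to 0.050 in foxo/+ and -1.26 to 0.17 in atf3[A]/+ against atf3[76]. In rel/+ against atf3[76] the Jonah median ran from -0.93 to 0.18. Trypsin medians ran from -0.74 to 0.32 in atf3[76], -0.69 to -0.047 in foxo/+, -0.97 to -0.21 in rel/+ and, for atf3[A]/+, -1.10 to -0.50 against y w, and from -0.92 to -0.061 in atf3[A]/+ against atf3[76]. Against atf3[76] the trypsin median ran from -0.48 to 0.25 in foxo/+ and from -0.49 to 0.22 in rel/+. The log2 ratio of summed Jonah FPKM ran from -0.92 to 0.93 in atf3[76], -1.56 to -0.23 in foxo/+, -1.18 to 0.14 in rel/+ and, for atf3[A]/+, -1.46 to -0.14 against y w, and from -1.76 to -0.13, -1.38 to 0.25 and -1.66 to -0.027 in foxo/+, rel/+ and atf3[A]/+ against atf3[76]. That of the trypsins ran from -1.67 to 0.46 in atf3[76], -1.36 to -0.092 in foxo/+, -1.37 to -0.10 in rel/+ and, for atf3[A]/+, -1.59 to -0.32 against y w, and from -1.24 to 0.80, -1.25 to 0.79 and -1.47 to 0.57 in foxo/+, rel/+ and atf3[A]/+ against atf3[76]. Where 1 library remained in a genotype, it was taken to vary like the others of the fit. With 2 libraries a genotype and shared reads among close copies, differences of single genes below the gap between replicates could not be resolved.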
